A study of Mus musculus with 8 samples.

Results

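A set of 10 enzyme genes of core glycolysis was followed in mouse cells sorted as undifferentiated spermatogonia, from samples labelled as Tert deletion or heterozygous. The genes were Hk1, Hk2, Gpi1, Pfkl, Pfkm, Pfkp, Aldoa, Pgk1, Pkm and Ldha. They were matched by gene symbol in the authors' deposited table, where all 10 had a row among 14853 genes. They were chosen with earlier results of these data known. Total RNA was sequenced from 4 samples of genotype Tert CreER/flox (called TERT-del in the sample titles) and 4 of genotype Tert CreER/+ (called TERT-hetero), from C57BL/6 mice of 8 to 12 weeks. Both groups carry the CreER allele at Tert, so that CreER marks and recombines cells that use the Tert promoter, and both carry the Rosa lsl-tdTomato/+ reporter and received tamoxifen, which activates CreER. Sorting on day 7 took tdTomato+ cells that were MCAM-high and KIT-. Whether each sample came from a separate mouse is not stated in the labels, so p-values measure only the spread between these samples.

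Glycolysis splits glucose into pyruvate in the cytosol and yields ATP without oxygen. Hexokinase, phosphofructokinase and pyruvate kinase catalyse its irreversible steps, and several steps have more than 1 gene, whose enzymes differ in tissue range and regulation. Lactate dehydrogenase then turns pyruvate into lactate and regenerates the NAD+ that the pathway uses. Spermatogonial stem cells are known to rely on glycolysis in culture, and spermatids and sperm carry germ cell forms of several of these enzymes.

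The values are those of the authors' comparison. For each gene it gives a mean normalized count over all libraries, the log2 of the ratio flox to CreER/+, the standard error (SE) of that value, and an adjusted p from the DESeq2 Wald test over the whole table. A gene was called changed at an adjusted p under 0.05. Values for single libraries and library totals were not used here, so neither the level in each sample nor the overlap of the groups can be given, and depth is seen only through mean counts and SEs. In the authors' deposited table the targeted gene Tert stood at 0.29 on the log2 scale (SE 0.26, adjusted p 0.595), at a mean count of 98.0. The labels do not say which bases Cre removes, so neither genotype labels nor sign could be checked with it. The sign was read from the table's name, flox against WT, although the labels hold no group called WT. Were the ratio the other way round, every sign, and with it every higher and lower, would be turned.

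As background for the members, 5.36% of all genes were called in the authors' deposited table, 3.42% lower and 1.94% higher in flox, and the median log2 fold change was 0.00071. Of the 10 glycolysis genes, 2 were called, Hk1 and Pfkm, both lower, and none was called higher. The other 8 did not pass the test. The median over all 10 was -0.20, with 8 below 0 and 2 above, beside 49.9% of all genes below 0. The members were chosen with earlier results of these data known, and this median and these counts depend on that choice. Gapdh, Pgam1 and Eno1, above 0, and Tpi1, below 0, are not among the members. An unadjusted p under 0.05 was reached by 3 of the 10, against 19.7% of all genes. Fewer transcripts per cell and fewer cells that express a gene cannot be told apart in such bulk samples.

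**Figure D1:**
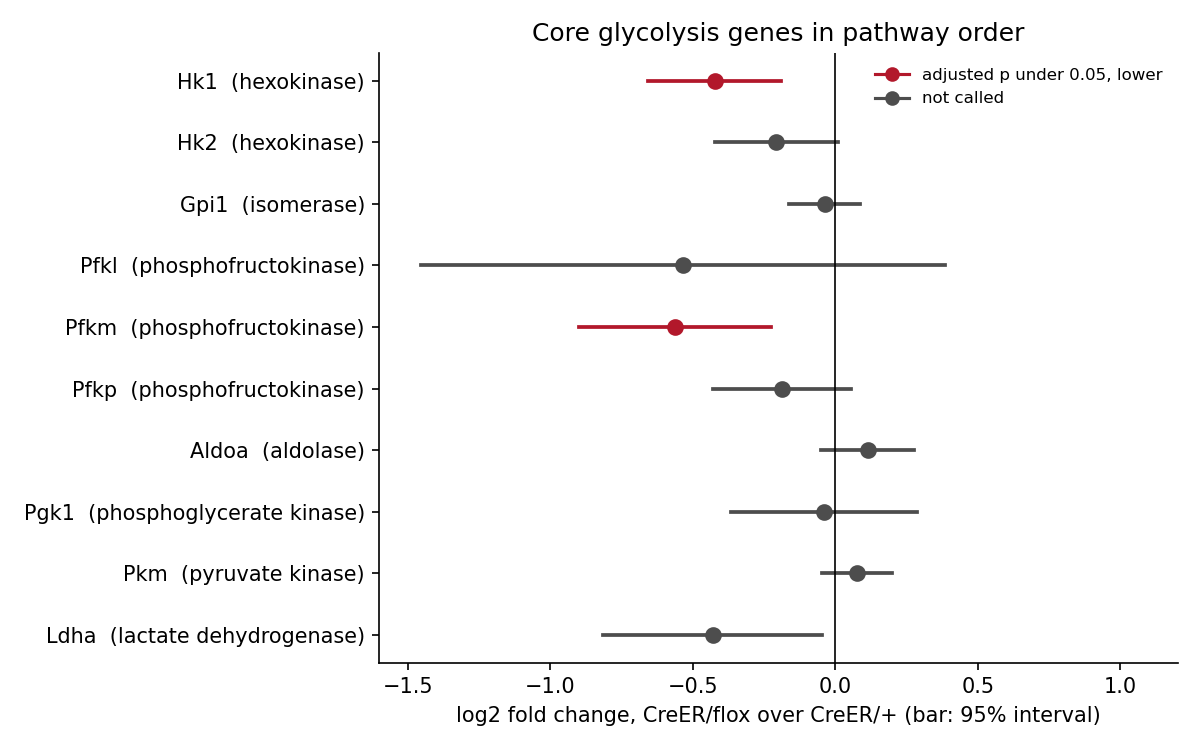
Log2 fold change of each core glycolysis gene, CreER/flox over CreER/+, with its 95% interval (horizontal axis), in pathway order from top to bottom, with called genes in red. Only the intervals of Hk1, Pfkm and Ldha lie wholly below 0, and Ldha did not pass the adjusted test.

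Glucose enters the pathway through hexokinase, which phosphorylates it and so traps it in the cell. Hk1 (Entrez gene 15275, GRCm38 chromosome 10, 62268855 to 62379920) encodes the widely expressed hexokinase I, and Hk2 (Entrez gene 15277, chromosome 6, 82725025 to 82774454) the more inducible hexokinase II. In the authors' deposited table Hk1 fell, with a log2 fold change of -0.42 (SE 0.12, 95% interval -0.66 to -0.19, adjusted p 0.0158) at a mean count of 1444. Expressed as a percentage, the change in flox was -25.4%, with an interval from -36.5% to -12.3%. If the fold is taken as the ratio of group means, this corresponds to 1654 normalized counts in CreER/+ and 1234 in flox. Hk2 stood at -0.21 in the authors' deposited table (SE 0.11, 95% interval -0.42 to 0.0072, adjusted p 0.275) at a mean count of 567.6 and did not pass. Per kb of transcript, Hk1 made up 76.6% of the mean count of the pair and Hk2 23.4%. By this measure, over all libraries together and without a test, the called gene had the higher level of the pair. Whether Hk1 and Hk2 differ in response was not tested.

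The SE of Hk1 was 1.46 times the median of 839 genes of similar mean count, and of those genes 4.17% were called. Hk1 has 2 annotated start sites in RefSeq, 39487 bases apart, and the table gives 1 value for the gene, so transcripts from the separate starts are counted together.

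Gpi1 (Entrez gene 14751, chromosome 7, 34201327 to 34230336) encodes glucose-6-phosphate isomerase, which converts glucose 6-phosphate to fructose 6-phosphate. At a mean count of 3784 it stood at -0.037 in the authors' deposited table (SE 0.063, 95% interval -0.16 to 0.087, adjusted p 0.818). It was among the most precisely measured members. A change of 1.14-fold would have been called with this SE, and the interval spans changes from -10.6% to 6.23%.

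Phosphofructokinase commits the sugar to glycolysis and is the main point at which the pathway is regulated. Its subunits are encoded by Pfkl (liver type), Pfkm (muscle type) and Pfkp (platelet type), which assemble into tetramers. Pfkm (Entrez gene 18642, chromosome 15, 98092589 to 98132447) fell by 0.56 on the log2 scale of the authors' deposited table, where its mean count was 204.8 (SE 0.17, 95% interval -0.90 to -0.23, adjusted p 0.0282). The change in flox was -32.4%, with an interval from -46.4% to -14.6%. As a ratio of group means this corresponds to 244 normalized counts in CreER/+ and 165 in flox.

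Pfkp (Entrez gene 56421, chromosome 13, 6579874 to 6649060) stood at -0.19 in the authors' deposited table (SE 0.12, 95% interval -0.43 to 0.056, adjusted p 0.421) at a mean count of 357.6. Pfkl (Entrez gene 18641, chromosome 10, 77986947 to 78009807) had a fold change close to that of Pfkm, -0.53, but an SE of 0.47 (95% interval -1.45 to 0.39, adjusted p 0.582) at a mean count of only 16.9 in the authors' deposited table. With that SE, a change of 2.66-fold would have been needed for a call, so a change as large as that of Pfkm was not detectable in Pfkl at this depth. Per kb of transcript, Pfkp made up 53.3% of the mean count of the phosphofructokinase genes, Pfkm 43.9% and Pfkl 2.80%. All 3 fold changes were below 0, and Pfkm alone passed the test. The differences between these genes were not tested.

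Pfkm's SE was 1.08 times the median of 1443 genes of similar mean count, of which 6.31% were called. RefSeq gives it 4 start sites, the last of them 19471 bases after the first. An annotated antisense-type transcript, Gm26513, covers 10.2% of its exonic bases on the same strand in GENCODE M21.

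**Figure D2:**
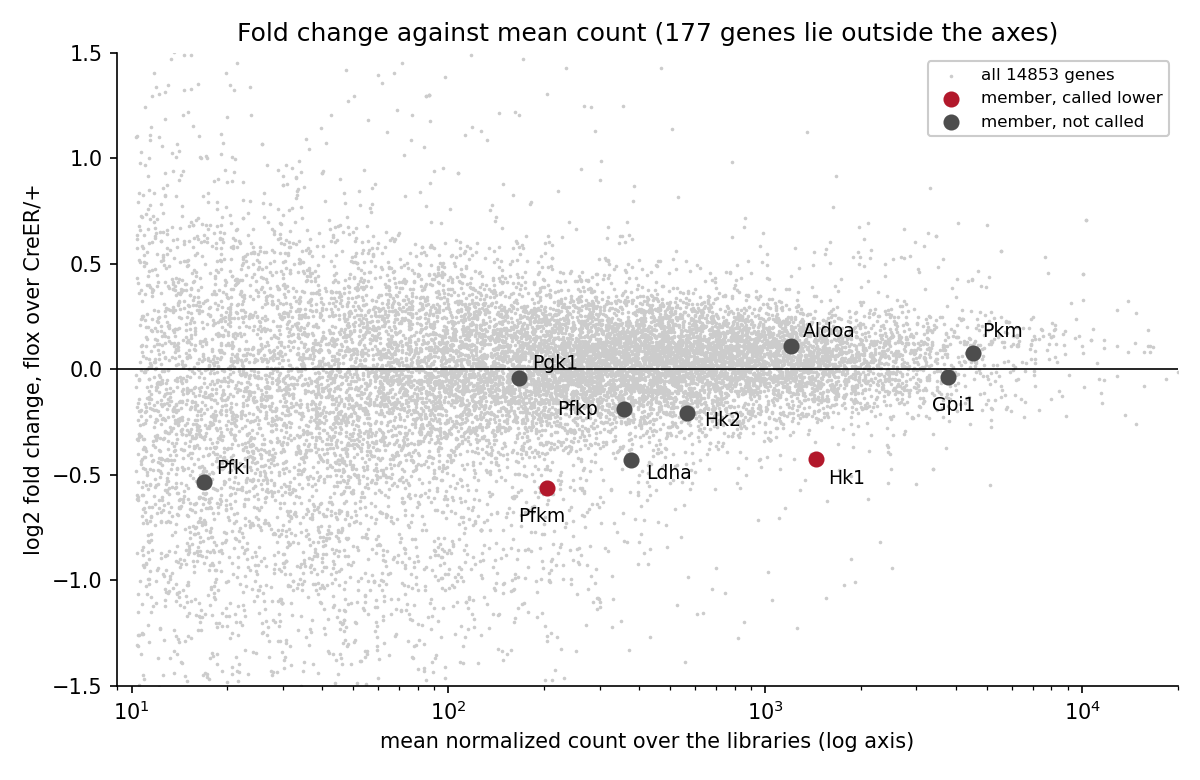
Log2 fold change (vertical axis, flox over CreER/+) against mean normalized count (horizontal log axis) for all genes in grey and the glycolysis genes in colour, with 177 genes outside the axes. Hk1 and Pfkm, in red, lie in the lower part of the cloud, while Gpi1, Pkm and Aldoa lie near 0.

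Aldolase splits fructose 1,6-bisphosphate into triose phosphates. Aldoa (Entrez gene 11674, chromosome 7, 126795234 to 126800994) stood at 0.11 in the authors' deposited table (SE 0.083, 95% interval -0.051 to 0.28, adjusted p 0.488) at a mean count of 1204. Phosphoglycerate kinase makes the first ATP of the pathway. Pgk1 (Entrez gene 18655, chromosome X, 106187100 to 106203699) stood at -0.040 in the authors' deposited table (SE 0.17, 95% interval -0.37 to 0.29, adjusted p 0.934) at a mean count of 167. Pyruvate kinase forms pyruvate and ATP, and Pkm yields the forms M1 and M2 by alternative splicing, which a count per gene does not separate. Pkm (Entrez gene 18746, chromosome 9, 59656576 to 59679372) stood at 0.076 in the authors' deposited table (SE 0.062, 95% interval -0.046 to 0.20, adjusted p 0.543) at a mean count of 4537. None of the 3 passed. The intervals of Aldoa and Pkm reach down to changes of -3.45% and -3.16% in flox, whereas that of Pgk1 reaches -22.4%.

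Ldha (Entrez gene 16828, chromosome 7, 46842274 to 46855627) encodes the subunit of lactate dehydrogenase that favours lactate formation. Its log2 fold change in the authors' deposited table, -0.43, was as low as that of Hk1, but with an SE of 0.20 (95% interval -0.82 to -0.046, unadjusted p 0.0282, adjusted p 0.187) at a mean count of 377.7 it did not pass. Genes of similar mean count had a median SE of 0.12, and the ratio of both was the highest among the members. Only changes of at least 1.51-fold would have been called.

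The levels of the members were compared per kb of their longest protein-coding transcript in GENCODE M21, over all libraries together and without a test. Pkm was highest at 1866 normalized counts per kb, followed by Gpi1 at 1312, Aldoa at 777 and Hk1 at 337.6. Below them came Ldha at 208 and Hk2 at 103, then Pgk1 at 91.7, Pfkp at 86.3 and Pfkm at 71.1. Pfkl was far below the rest at 4.54, and 3.97% of genes with a known length had a lower level. The spread over samples is not known, so neighbours in this order such as Hk2, Pgk1, Pfkp and Pfkm cannot be said to differ. The calls thus fell on the fourth and the ninth gene in this order.

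**Figure D3:**
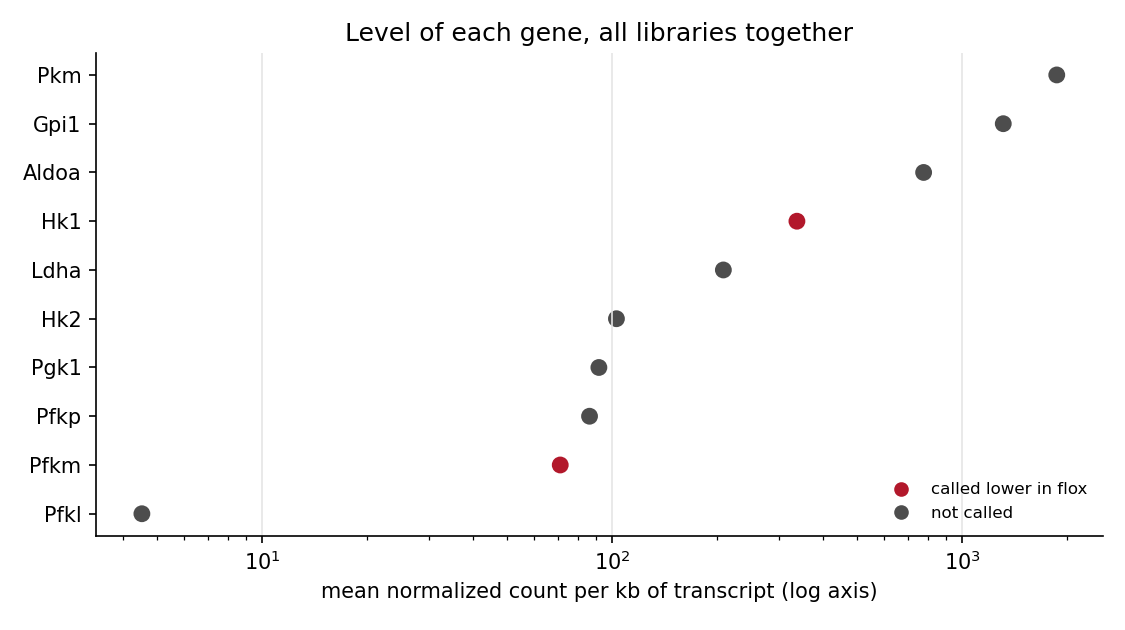
Mean normalized count per kb of transcript over all libraries (horizontal log axis) for each glycolysis gene, sorted from highest to lowest, with genes called lower in flox in red. Pkm at 1866 is 411 times as high as Pfkl at 4.54, and the called genes Hk1 and Pfkm stand at 337.6 and 71.1.

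Some of these counts can include or lose reads of near-identical sequence, and the labels do not say how reads that map to several places were counted. Of the 50-base stretches of the Pgk1 transcript, 68% also occur in transcripts of other GENCODE genes, nearly all of them in Pgk1-rs7. The share was 34.4% for Pkm, 25.3% for Gpi1, 17.1% for Pfkp, 16.6% for Ldha and 13.5% for Aldoa, so the levels of these genes and the place of Pgk1 in particular are uncertain. In Pfkp the shared stretch belongs to Pitrm1 on the opposite strand. Pfkm and Hk2 share no such stretch, Pfkl 0.054% and Hk1 2.55%, the latter only with its antisense transcript Hk1os. These shares cover only the longest protein-coding transcript of each gene. By them, the 2 called members belong to those with the least shared sequence. Over all annotated exons, however, Gm26513 covers 10.2% of the exonic bases of Pfkm on the same strand. The call of Pfkm is therefore not shown to be free of reads from shared sequence.

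Sequences upstream of start sites are shown for the called genes, for Hk2 as the other hexokinase, and for Ldha, whose first listed start holds matches of most of the motifs searched. They are the 250 bases before the annotated start in RefSeq GRCm38.p6, 5′ to 3′ on the strand of the gene. Capitals mark matches, on either strand, of the E-box, the GC box, the TATA box and the cyclic AMP element, whose letters are given after the sequences. The windows are chr10:62379909-62380158 (minus strand) for the first start of Hk1, chr6:82774455-82774704 (minus strand) for Hk2, chr15:98092339-98092588 (plus strand) for the first start of Pfkm and chr7:46845554-46845803 (plus strand) for the first start of Ldha. None of these windows overlaps an exon in GENCODE M21. The RefSeq gene ranges given above, whose exons were not examined, reach into the windows of Hk1 and Ldha.
Hk1: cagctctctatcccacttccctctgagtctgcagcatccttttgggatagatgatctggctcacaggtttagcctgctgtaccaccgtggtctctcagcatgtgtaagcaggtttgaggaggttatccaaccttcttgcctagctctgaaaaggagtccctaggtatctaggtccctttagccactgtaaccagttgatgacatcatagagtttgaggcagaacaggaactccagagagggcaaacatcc
Hk2: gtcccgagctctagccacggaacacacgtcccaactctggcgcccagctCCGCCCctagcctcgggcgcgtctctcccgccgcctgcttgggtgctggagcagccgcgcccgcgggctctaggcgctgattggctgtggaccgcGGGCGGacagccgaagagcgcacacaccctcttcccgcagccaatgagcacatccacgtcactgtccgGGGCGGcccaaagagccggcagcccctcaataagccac
Pfkm: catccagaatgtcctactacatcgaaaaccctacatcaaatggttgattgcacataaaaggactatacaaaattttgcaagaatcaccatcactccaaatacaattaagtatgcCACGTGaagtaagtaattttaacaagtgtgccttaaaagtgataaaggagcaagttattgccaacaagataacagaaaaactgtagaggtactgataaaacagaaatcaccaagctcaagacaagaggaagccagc
Ldha: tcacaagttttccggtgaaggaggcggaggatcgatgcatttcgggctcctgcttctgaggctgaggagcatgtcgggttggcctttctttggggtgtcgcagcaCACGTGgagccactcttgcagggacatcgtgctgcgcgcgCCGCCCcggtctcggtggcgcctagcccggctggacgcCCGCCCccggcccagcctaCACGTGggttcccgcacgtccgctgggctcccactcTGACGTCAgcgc

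All 10 genes matched the RefSeq table, with 18 start sites in all. Hk1, Pfkm, Aldoa, Pkm and Ldha have more than 1, as do 15.4% of all genes there. The motifs searched on both strands were the E-box CACGTG, bound by MYC and related factors, the GC box GGGCGG, the cyclic AMP element TGACGTCA, the TATA box TATAAA and the hypoxia core, ACGTG or GCGTG, which an E-box also contains. An E-box occurred in 2 of the 18 windows, against 6.02% of all 32851 windows of this length. These were the first starts of Pfkm, 136 bases before the start, and of Ldha, at 145 and 48 bases. Hk1 has none. A GC box occurred in 8 of the 18 windows (32.7% of all windows), among 7 of the genes, and in no window of Hk1, Pfkl or Pfkm. The hypoxia core was present in 13 of the 18 windows (38.6% of all), among 9 of the genes. Windows of starts that lie close together overlap in Aldoa and in Pfkm, so 1 site can count in 2 windows. The cyclic AMP element was present in 1 window (1.55% of all), the first start of Ldha, 12 bases before it. No window held the TATA box (12.4% of all). The first start of Hk1 held no motif of this set, while the hypoxia core was present at the other start of Hk1 and at 3 of the 4 starts of Pfkm. At their first starts, the GC content was 49.6% for Hk1 and 36.4% for Pfkm.

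The remaining enzymes and neighbouring pathways were read from lists of genes. Of 12 other glycolytic enzyme genes with a row, 0 were called by the authors' DESeq2 test and 3 had an unadjusted p under 0.05, with a median of -0.044. Within the authors' deposited table, the smallest p value of this list belonged to Pgam2, the muscle phosphoglycerate mutase (-0.92, SE 0.41, adjusted p 0.175). The steps between the members are covered by Tpi1 (-0.44, SE 0.25), Gapdh (0.16, SE 0.084), Pgam1 (0.065, SE 0.087) and Eno1 (0.059, SE 0.062), which were named after their values in the authors' deposited table were seen and of which none passed. From Gapdh through Pkm, the genes Gapdh, Pgk1, Pgam1, Eno1 and Pkm thus had values between -0.040 and 0.16. This range depends on that choice. Pgam2, at 308 normalized counts per kb, and Eno3 (-0.13, SE 0.25), also named after its value was seen, lay below it.

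Among 14 genes that regulate glycolytic flux, 2 were called, both lower. Pfkfb2, whose enzyme makes and breaks down the fructose 2,6-bisphosphate that activates phosphofructokinase, fell by 0.60 on the log2 scale of the authors' deposited table (SE 0.16, adjusted p 0.0114). Egln2, an oxygen-dependent prolyl hydroxylase that marks HIF proteins for degradation, fell by 0.35 on the log2 scale of the authors' deposited table (SE 0.099, with an adjusted p of 0.0181). The median of this list was 0.075, on the other side of 0 from its called members. Of 12 hypoxia-inducible genes outside glycolysis, 1 was called. Car9, a carbonic anhydrase, rose in the authors' deposited table by 3.00 on the log2 scale (SE 0.82, adjusted p 0.0118), at a mean count of only 17.4, where genes of similar count had a median SE of 0.51. The median of that list was 0.075.

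Of 13 hexose and lactate transporter genes, 1 was called. Slc16a7, which encodes the monocarboxylate transporter MCT2, fell by 1.27 on the log2 scale of the authors' deposited table (SE 0.28, with an adjusted p of 0.00115). The lists of pyruvate entry into mitochondria, the pentose phosphate pathway and the tricarboxylic acid cycle had 0 of 14, 13 and 20 genes called by the authors' DESeq2 test and 4, 1 and 1 with an unadjusted p under 0.05, with medians of 0.11, 0.091 and 0.10. Over all lists of enzymes and related genes, sperm-specific forms included, 8 of 119 genes were called and 26 reached an unadjusted p under 0.05. The shares over all genes were 5.36% called and 19.7% at an unadjusted p under 0.05, and no difference from them was tested. Where a list had no call, the authors' deposited table gave its smallest p values for the pyruvate dehydrogenase genes Pdha1 (0.26, SE 0.094, adjusted p 0.0814) and Pdhb (0.27, SE 0.10, adjusted p 0.0998), for the transketolase-like Tktl1 (0.27, SE 0.098, adjusted p 0.0781) and the phosphoribosyl pyrophosphate synthetase Prps1 (0.29, SE 0.17, adjusted p 0.332), and for Sdhc (0.23, SE 0.10, adjusted p 0.193) and Mdh1 (0.20, SE 0.10, adjusted p 0.263) of the tricarboxylic acid cycle. Of 11 genes of gluconeogenesis and glycogen metabolism, Fbp1, the fructose bisphosphatase that opposes phosphofructokinase, was called lower, with -0.98 on the log2 scale of the authors' deposited table (SE 0.30, adjusted p 0.0291), and the median of the list was -0.0080.

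**Figure D4:**
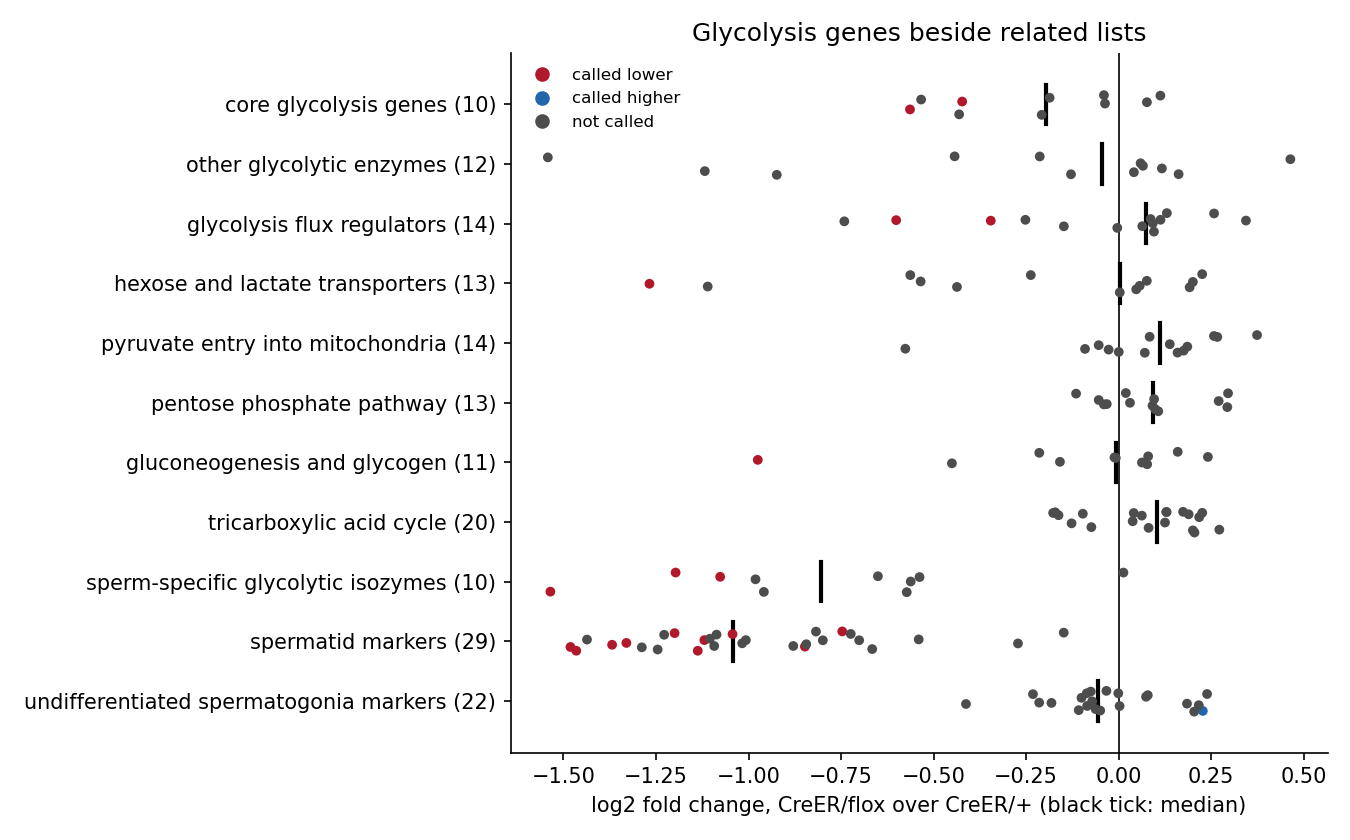
Log2 fold change, CreER/flox over CreER/+ (horizontal axis), of each gene in the glycolysis set, in related pathway lists and in lists of spermatid and spermatogonial markers, with the number measured in brackets and the median as a black tick. The glycolysis median of -0.20 lies below those of the neighbouring metabolic lists and above those of the sperm isozymes (-0.80) and spermatid markers (-1.04). All lists were chosen with earlier results of these data known.

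The cells are labelled as spermatogonial stem cells, and markers of undifferentiated spermatogonia were present, with a row for 22 of 22 genes and mean counts of 5143 for Zbtb16, 5088 for Dazl and 4854 for Mcam, the sorting marker, in the authors' deposited table. Dazl alone of these 22 was called, and rose by 0.23 on the log2 scale of the authors' deposited table (SE 0.061, adjusted p 0.00997), beside a list median of -0.056. Of the list, 14 genes lay below 0 and 8 above, and 3 had an unadjusted p under 0.05. Ret (-0.23, SE 0.084) and Zbtb16 (-0.18, SE 0.067) lay below 0 and were not called. Spermatids are the postmeiotic cells that become sperm. Their markers, too, had rows for 29 of 29 genes, and none was without counts. Mean counts per library ran from 16.5 to 1924 and summed to 10436 over the 29 genes. Per kb of transcript, their levels ran from 9.59 (Catsper4) to 4404 (Tnp1) normalized counts. Those of the undifferentiated spermatogonia markers ran from 12.1 (Utf1) to 1710 (Dazl). Catsper4, Tnp1 and Utf1 were named after their values were seen, and no difference in level was tested. All 29 lay below 0 (median -1.04), 24 had an unadjusted p under 0.05 in the DESeq2 test, and 10 were called lower. Over all genes the shares were 49.9%, 19.7% and 3.42%. The marker lists were chosen with earlier results of these data known, so these counts depend on that choice. By the authors' deposited table, the 4 with the lowest adjusted p were Odf1, Spata18, Spem1 and Tssk1 (-1.14, -1.04, -1.47 and -1.37). The spermatid markers thus moved in the direction of Hk1 and Pfkm. Their part in the glycolysis values was not tested. Spermatocyte markers had 2 of 24 called, Piwil1 (-0.73) and Sycp2 (-0.53), both lower in the authors' deposited table. That list was mixed, with 14 genes below 0, 10 above and a median of -0.084, and 6 had an unadjusted p under 0.05. Markers of differentiating spermatogonia had 0 of 7 called by the same DESeq2 test (2 at an unadjusted p under 0.05). Sertoli cell markers had rows for 9 of 14 genes, Amh, Fshr and Dhh without one, and a single called gene, Trf (0.62), in the authors' deposited table. Actg2 (-1.17) was the called gene of 3 myoid markers with a row in the authors' deposited table. Leydig, endothelial, leukocyte and erythroid markers had rows for 1, 5, 1 and 5 of 6 genes each, and none was called or reached an unadjusted p under 0.05.

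Aldoa, Pgk1 and Ldha have sperm-specific counterparts, encoded by Aldoart1 and Aldoart2, Pgk2, and Ldhc and Ldhal6b, which gives a comparison within an enzyme. For the called genes Hk1 and Pfkm, transcripts from several annotated starts are counted together. Forms that differ by start could not be compared in them. Over all genes, 49.9% were below 0, 19.7% had an unadjusted p under 0.05 in the DESeq2 test and 3.42% were called lower. Of 10 sperm-specific genes of energy metabolism, 9 were below 0, 7 had such an unadjusted p and 3 were called lower. These were, by the authors' deposited table, Gykl1 (-1.20, SE 0.25, adjusted p 0.000547), Aldoart2 (-1.54, SE 0.34, adjusted p 0.00105) and Aldoart1 (-1.08, SE 0.35, adjusted p 0.0397). The intervals of Aldoa (-0.051 to 0.28) and of both counterparts (-1.75 to -0.40 and -2.19 to -0.88) in the authors' deposited table do not overlap. The difference itself was not tested, and Aldoart1 holds 6.27% of the 50-base stretches of Aldoa. Pgk2 stood at -0.65 (SE 0.41) beside -0.040 for Pgk1, and Ldhc at -0.96 (SE 0.36) beside -0.43 for Ldha in the authors' deposited table, with overlapping intervals and no call. Per kb of transcript, over both genotypes, the level of Ldhc was 3.58 times that of Ldha and that of Ldhal6b 0.562 times. Pgk2 had 1.63 times the level of Pgk1, whereas Aldoa was 36.8 times as high as Aldoart1 and 18.6 times as high as Aldoart2. The SE of each sperm-specific gene, set against genes of similar mean count, gave ratios from 0.91 for Eno4 and Pdha2 to 4.04 for Ldhc, with a median of 1.46, beside 1.46 for Hk1. Eno4 and Pdha2 were named after their values were seen.

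**Figure D5:**
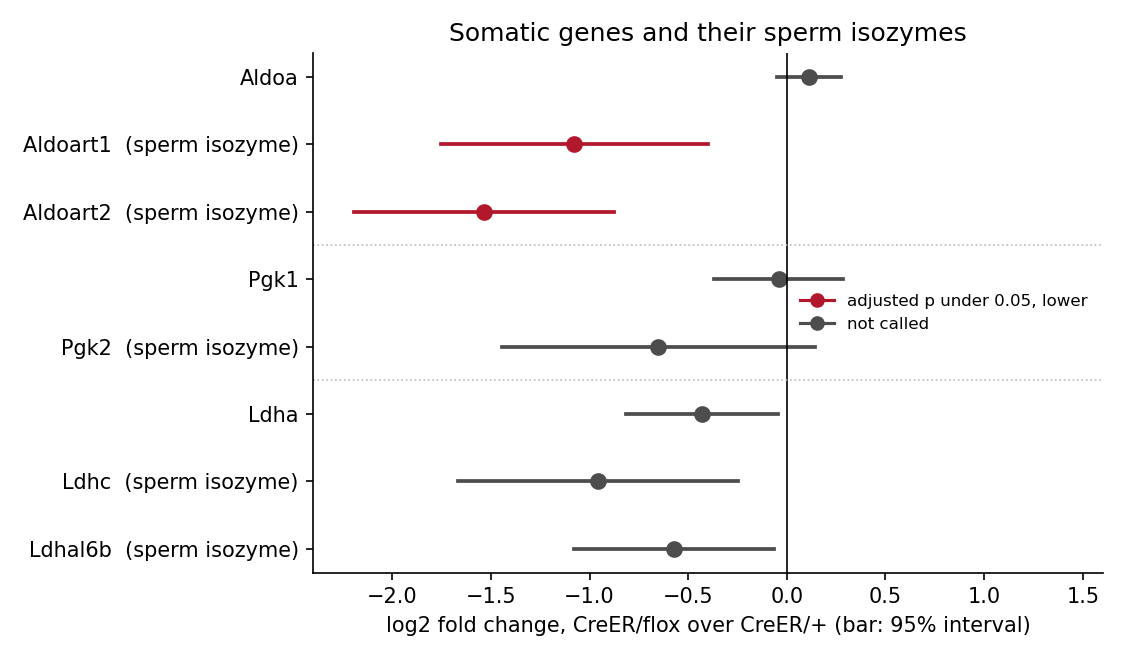
Log2 fold change, CreER/flox over CreER/+, with 95% intervals (horizontal axis), of Aldoa, Pgk1 and Ldha, each above its sperm isozymes, with called genes in red. Aldoart1 and Aldoart2 lie below the interval of Aldoa, while the intervals of Pgk2, Ldhc and Ldhal6b overlap those of Pgk1 and Ldha.

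The calls of Hk1 and Pfkm rest on the normal distribution of the Wald statistic, which the authors used. Between their quartiles, the statistics of all genes were spread 1.45 times as widely as that distribution. With this width divided out, the adjusted p was 0.601 for Hk1 and 0.655 for Pfkm, and 5 genes of the whole table were called. With a t distribution of 6 degrees of freedom the adjusted p was 0.439 for both genes, and 0 of all 14853 genes were called. That setting therefore cannot set Hk1 and Pfkm apart from any other called gene. After a linear trend in length, GC content and mean count was taken out of the fold changes, Hk1 stayed called (-0.44, adjusted p 0.0131) and Pfkm did not (-0.49, adjusted p 0.0840). The 8 called genes of the related lists lost their calls with the first 2 of these settings as well, and with the trend taken out so did Fbp1 (-0.91, adjusted p 0.0575) and Aldoart1 (-0.95, adjusted p 0.0966).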

How the data were processed

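A stranded low-input total RNA kit was used, per the labels' protocols. Bowtie, DESeq2, TopHat2 2.0.4, Trim Galore and Bowtie2 2.0.0-6 are named with builds GRCm38 and mm10, per the submitters' processing notes. Not given in the sources used here are the counting program, the annotation, the strand setting of the counting and how multiply mapped reads were treated. A single table of the authors' own comparison was used. It holds, per the file headers, the mean over libraries of a count signal normalized by the authors, the deposited fold changes and SEs as log2 values, the Wald statistic as deposited score, and deposited p-values that matched a normal distribution of that score to within 0.424%. A Benjamini-Hochberg adjustment over 14853 rows matched the authors' deposited adjusted values to within 0.426%.

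Members were matched on the symbol in the table, other genes by Entrez ID to RefSeq GRCm38.p6 (14828 rows). No model was fitted. Intervals of 95% are the fold change plus or minus the normal quantile times the SE, and cover the authors' fitted error only. Lengths are those of the longest protein-coding GENCODE M21 transcript or, for genes without one, of the longest transcript (99.2% of rows had a length). Named were all members, in each list up to 4 called genes or else the 2 of smallest p, and Tert. Marker lists without calls are given by counts. A gene that this rule names is not reported here. Members and lists were chosen with earlier results of these data known. Steps were tested on simulated data, and used matplotlib 3.10.9, scipy 1.17.1, pandas 2.3.3, numpy 2.4.6 and Python 3.11.15. Library depth was not used here.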

Additional observations from a re-analysis of the deposited data

How the results depend on the processing

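The count of glycolysis genes called, 2, was 0 at an adjusted p under 0.01, 0 with a t distribution of 6 degrees of freedom in place of DESeq2's normal distribution (2 at an unadjusted p under 0.05), 0 with the null SD estimated from the quartiles of the statistics (2 at an unadjusted p under 0.05), and 1 with the trend in length, GC content and mean count removed. Under these settings, in the same order, the whole table had 264, 0, 5 and 499 called genes in place of 796 (the last among 13695 protein-coding genes, of which 706 had been called), and the related lists 3, 0, 0 and 6 in place of 8. At an adjusted p under 0.1 the counts were 1340 for the table and 13 for the related lists. With the adjustment limited to mean counts from 100 up, the related lists had 5 called among 92 tested genes, in place of 119. Car9, Aldoart1 and Aldoart2 lay under that mean count and were not tested there. The fold change of Hk1 (-0.42) lost its call with the t distribution (adjusted p 0.439) and the estimated null SD (0.601), as did that of Pfkm (-0.56, 0.439 and 0.655), which also lost it at -0.49 with the trend removed (0.0840). With the trend removed, the values of Pgk1 and Pkm changed sign, to 0.0086 and -0.025, neither called. Centring on the median, a mean count of at least 50 and, added after the data were seen, counting identical rows once changed no call among the members. No paired analysis was possible because the table gives no values per library, and for the same reason no library could be left out. Mean count limits Pfkl most.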
